A study of Mus musculus with 71 samples.

Results

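The transcripts of 10 serotonin receptor genes (Htr1a, Htr1b, Htr1d, Htr1f, Htr2a, Htr2c, Htr3a, Htr4, Htr5a and Htr7) were followed through 71 RNA-seq libraries from mouse brain. The genes were chosen by symbol from a gene table of 37681 rows, with earlier results of these data known. Every one of them had a value in all 71 libraries. Wild-type mice, given as C57BL/6 in the labels and as C57BL/6J, male and female and 8 weeks old in the study's methods, learned to work for food pellets and were fitted with a jugular catheter. They then self-administered cocaine (0.7 mg/kg per infusion) or saline in 2-h sessions on 21 days and stayed abstinent for 1 day or 28 days. The nucleus accumbens (NAc), the ventral tegmental area (VTA) and the prefrontal cortex (PFC) were punched from brain slices, which gave 12 groups of 6 libraries each, except for saline VTA at 28 days with 5. Food training, surgery and the handling were shared by the saline controls, so the contrast was cocaine intake against saline intake in trained animals. The labels did not say whether each library came from 1 mouse, nor the sex behind a library, so the tests measure the spread between libraries only.

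Serotonin is made by neurons of the raphe nuclei, which lie just behind the VTA and project to all 3 regions. The receptors of the Htr1 group and Htr5a couple to inhibitory Gi/o proteins, Htr2a and Htr2c couple to Gq and phospholipase C, Htr4 and Htr7 couple to Gs and adenylyl cyclase, and Htr3a forms a cation channel. Htr1a and Htr1b are also autoreceptors that brake serotonin neurons at the cell body and at the terminal. Cocaine blocks the serotonin transporter as well as the dopamine transporter.

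Promoter windows are shown for 3 receptors that were higher in the NAc than in the PFC (Htr1b, Htr1d, Htr2c) and for Htr2a, which was not called different between those regions. Each is the 250 bases before a RefSeq start (GRCm38.p6), 5′ to 3′ on the strand of the gene, with capitals for GC boxes (GGGCGG) and CCAAT boxes (CCAAT) on either strand. The windows lie at chr9:81633833-81634082 (minus strand) for Htr1b, chr4:136423274-136423523 (plus strand) for Htr1d, chrX:146962263-146962512 (plus strand) for Htr2c and chr14:74640624-74640873 (plus strand) for Htr2a.
Htr1b: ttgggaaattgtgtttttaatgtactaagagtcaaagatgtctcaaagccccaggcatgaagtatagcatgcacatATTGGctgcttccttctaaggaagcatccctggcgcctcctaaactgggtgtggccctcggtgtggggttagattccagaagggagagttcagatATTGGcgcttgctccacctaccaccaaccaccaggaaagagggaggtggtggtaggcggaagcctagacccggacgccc
Htr1d: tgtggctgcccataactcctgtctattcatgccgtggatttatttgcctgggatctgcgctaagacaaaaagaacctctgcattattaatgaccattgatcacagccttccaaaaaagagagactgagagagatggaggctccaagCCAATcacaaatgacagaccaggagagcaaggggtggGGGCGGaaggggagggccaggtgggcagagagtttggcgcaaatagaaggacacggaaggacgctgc
Htr2c: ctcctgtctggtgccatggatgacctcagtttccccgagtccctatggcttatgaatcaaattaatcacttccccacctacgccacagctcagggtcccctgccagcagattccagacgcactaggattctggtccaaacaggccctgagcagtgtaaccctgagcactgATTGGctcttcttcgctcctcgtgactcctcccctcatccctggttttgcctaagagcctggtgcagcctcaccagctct
Htr2a: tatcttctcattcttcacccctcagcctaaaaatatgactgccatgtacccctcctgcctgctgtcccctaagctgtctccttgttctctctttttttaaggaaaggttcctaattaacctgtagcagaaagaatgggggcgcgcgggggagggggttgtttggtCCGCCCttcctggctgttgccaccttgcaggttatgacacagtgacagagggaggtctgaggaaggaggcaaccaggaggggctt
Htr1d has a second window, chr4:136424362-136424611, which is not printed and held 3 GC boxes and no CCAAT box. Of the 9 receptor windows, 3 held a CCAAT box (Htr1b, the printed window of Htr1d, and Htr2c), beside 33.8% of all 32851 windows of the table. A GC box was in 4 of the 9 (Htr1a, both windows of Htr1d, and Htr2a), beside 32.7% of all windows. The TATA box (TATAAA, 12.4% of all windows), the cyclic AMP response element (TGACGTCA, 1.55%) and the Nr4a response element (AAAGGTCA, 1.34%) had no match in the 9 windows of 8 receptors, Htr1d having 2. Windows of Htr3a and Htr4 were not analysed here. No 2 matches overlap in the windows printed, and a match describes the window only.

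On mm9, the build of the files, the GENCODE annotation places Htr1a at chr13:106233773-106238213 and Htr1b at chr9:81524950-81526222, both with 1 exon and no intron. Htr1d lies at chr4:135979439-136000313, Htr1f at chr16:64924555-65105610, Htr2a at chr14:75040647-75106666, Htr2c at chrX:143397056-143631820, Htr3a at chr9:48707319-48719204, Htr4 at chr18:62483858-62627456, Htr5a at chr5:28168487-28181626 and Htr7 at chr19:36033224-36131997. All 10 are annotated as protein-coding. The span of D430036J16Rik, a long noncoding RNA on the opposite strand, overlaps Htr1b, and it held 201 to 584 reads per NAc library at 28 days against 447 to 1043 for Htr1b. Its median at 28 days was 387 reads in the NAc, 24.0 in the VTA and 85.5 in the PFC, so it was highest in the NAc, as Htr1b was. The strand used in counting was not given in the sources used here, so reads on any bases shared by the exons of the pair cannot be told apart. The annotation also sets 8 small RNA genes inside the span of Htr2c.

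Libraries held 20971967 to 49700932 reads assigned to genes. Levels are given as RPKM, reads assigned to a gene scaled by its transcript length and by the library total. They can be compared between genes only as far as the lengths used hold. Receptor reads were few in places: Htr1d had 8 to 22 reads per PFC library at 1 day, whereas Htr2c had 4039 to 5750 in the NAc cocaine libraries of that day.

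One library stood apart from its label. Saline replicate 4 of the PFC at 28 days held 45.9 RPKM of Drd2 and 58.9 RPKM of Adora2a, both striatal receptors, against 1.07 to 1.54 and 1.26 to 2.15 RPKM in the other 5. The summed level of 8 striatal medium spiny neuron markers was 1324 RPKM there and 92.4 to 126 RPKM in the others, while all 7 cortical excitatory neuron markers were below the mean of the others and none was at 0. The receptors that were higher in the NAc than in the PFC were also high in it. Htr1d was 2.46 RPKM against 0.108 to 0.267, Htr1b was 9.71 against 1.78 to 3.08, Htr2c was 10.6 against 3.18 to 4.78, and Htr4 was 1.16 against 0.317 to 0.583 RPKM. The receptor differences, counts and order that turn on this library are given with and without it.

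**Figure D1:**
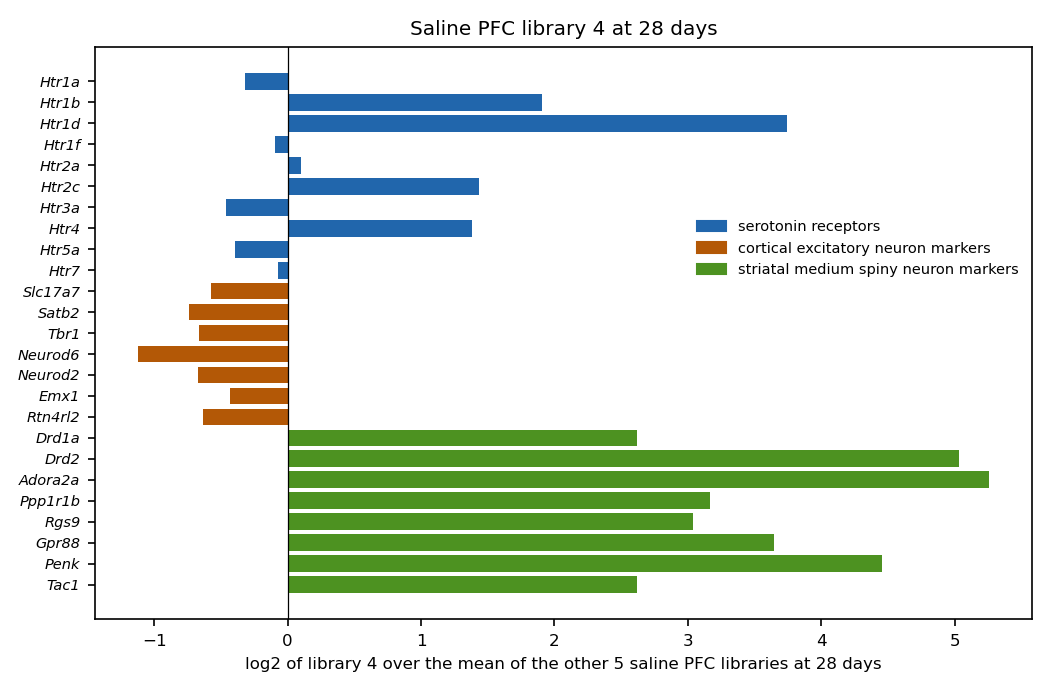
Level of 10 serotonin receptors, 7 cortical and 8 striatal marker genes in saline PFC replicate 4 at 28 days, as the log2 ratio to the mean of the other 5 saline PFC libraries. All 8 striatal markers, Htr1b, Htr1d, Htr2c and Htr4 lie far to the right of 0, and all 7 cortical markers lie to its left.

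Other tissue also varied within regions. Of the serotonin neuron markers, Tph2 (the enzyme of neuronal serotonin synthesis) ranged from 0.312 to 158 RPKM over the VTA libraries, and all 3 markers, with Slc6a4 and Fev, were above 0 in each. Their summed level had a median of 105 RPKM in saline and 11.4 RPKM in cocaine VTA libraries at 28 days, and of 70.1 and 56.3 RPKM at 1 day. On the log2 scale the mean marker level at 1 day was lower in saline (2.30) than in cocaine libraries (3.41), and at 28 days it was 3.60 and 0.96, with no marker called by limma or edgeR between the groups. In the NAc, the summed level of the 7 cortical markers ranged from 3.16 to 287 RPKM at 1 day and from 4.39 to 217 RPKM at 28 days, and none of the 7 was at 0 in a NAc library. NAc libraries held 1617 to 3682 RPKM of the striatal markers, and VTA libraries held 423 to 2030 RPKM of the 7 dopamine neuron markers, so both labels were borne out by their defining genes. In punches, fewer cells of a type and less RNA per cell cannot be told apart.

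The first question was where each receptor is expressed without cocaine. It was answered in the saline libraries at 28 days, whose 3 tables hold raw counts, with 1 edgeR quasi-likelihood model over the 17 libraries and 17181 genes. A gene was called at a Benjamini-Hochberg adjusted p under 0.05. In the NAc, 4 of the 10 receptors were higher than in the PFC, beside 20.0% of all genes, and 3 were lower, beside 20.7%. Between NAc and VTA, 6 receptors were higher in the NAc (29.8% of all genes) and 3 were lower (32.6%). Between VTA and PFC, 2 were higher in the VTA (29.8% of all genes) and 4 were lower (28.1%). Without PFC replicate 4 the VTA to PFC counts were 3 higher and 4 lower, and the other counts did not change. Region and table cannot be told apart in this contrast. The study's methods describe all 3 regions as taken from the brains, so libraries of different regions may share mice. The model treated the 17 libraries as independent.

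**Figure D2:**
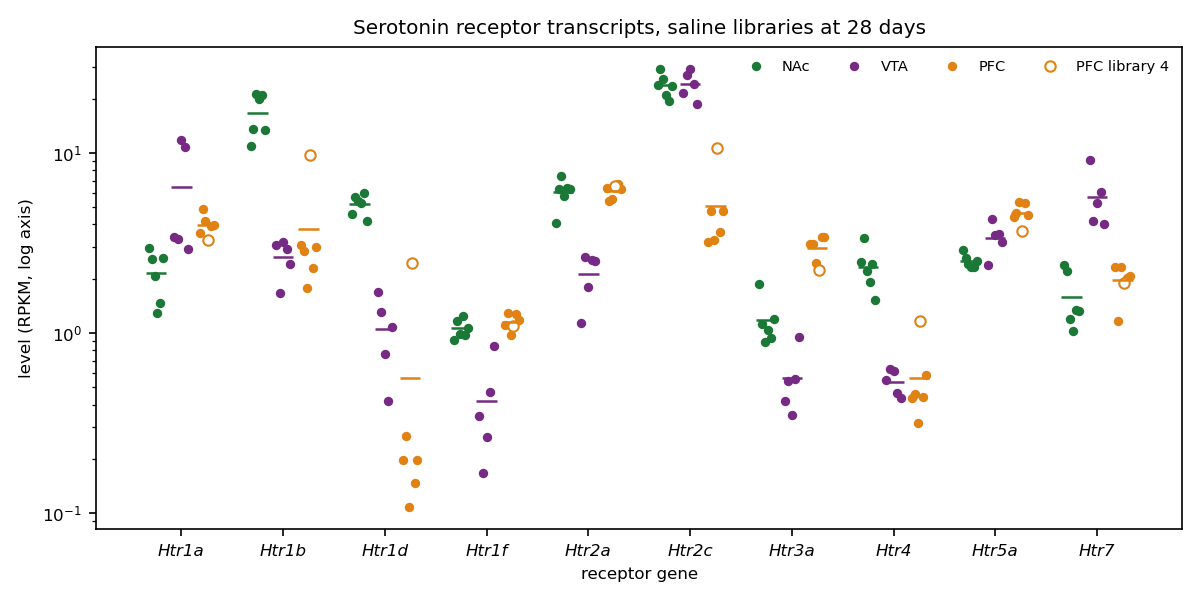
Level of each receptor in RPKM on a log axis in the saline libraries at 28 days, 6 of NAc, 5 of VTA and 6 of PFC; points are libraries, horizontal lines are group means, and the open point is PFC replicate 4. Htr2c is near 24 RPKM in NAc and VTA, and Htr1d spans the widest range of means, from 5.19 RPKM in the NAc down to the PFC.

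Among the Gi/o-coupled receptors, Htr1b and Htr1d marked the NAc. Htr1b was 10.9, 13.3, 13.5, 19.8, 20.8 and 21.2 RPKM in the NAc, 1.66, 2.4, 2.93, 3.08 and 3.21 RPKM in the VTA, and 1.78, 2.30, 2.84, 2.99, 3.08 and 9.71 RPKM in the PFC. No NAc library overlapped another region. Its log2 difference was 2.10 ± 0.340 (SE; edgeR adjusted p = 7.99e-05) from NAc to PFC and 2.76 ± 0.376 (adjusted p = 5.08e-06) from NAc to VTA, while VTA and PFC did not differ beyond their spread (-0.66 ± 0.361, adjusted p = 0.126). Without PFC replicate 4 the NAc to PFC difference was 2.66 and the VTA to PFC difference was -0.12. The overlapping D430036J16Rik was also highest in the NAc, and its part in the Htr1b reads was not tested.

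Htr1d, a close relative of Htr1b, was 4.19, 4.6, 5.24, 5.42, 5.69 and 5.99 RPKM in the NAc and 0.417, 0.764, 1.08, 1.31 and 1.69 RPKM in the VTA. In the PFC it was 0.108, 0.147, 0.197, 0.198 and 0.267 RPKM, with 2.46 RPKM in replicate 4. The NAc libraries lay above all others, and the VTA libraries lay above all PFC libraries but that one. Its NAc to PFC log2 difference was 3.14 ± 0.615 (edgeR adjusted p = 4.75e-04), and 4.77 ± 0.323 without replicate 4. The VTA to PFC difference was 0.72 ± 0.628 (adjusted p = 0.338) with that library and 2.33 ± 0.320 (adjusted p = 8.54e-06) without it.

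Htr1a had its lowest mean in the NAc. It was 1.29, 1.47, 2.07, 2.57, 2.61 and 2.95 RPKM in the NAc, 3.29, 3.59, 3.94, 3.96, 4.16 and 4.85 RPKM in the PFC, and 2.93, 3.32, 3.42, 10.7 and 11.8 RPKM in the VTA. NAc and PFC did not overlap, but the highest NAc library (2.95 RPKM) lay above the lowest VTA library (2.93 RPKM). The VTA libraries with 10.7 and 11.8 RPKM stood high above the rest and held 102 and 91.7 RPKM of Tph2. The VTA library with 2.93 RPKM held 63.9 RPKM of Tph2. The part of serotonin neurons in the VTA levels of Htr1a was not tested in this contrast. Htr1a was lower in the NAc than in the VTA by a log2 difference of -1.47 ± 0.330 (edgeR adjusted p = 8.45e-04), and by -0.56 ± 0.215 (edgeR adjusted p = 0.0287) in the 1-day saline libraries. The NAc to PFC difference of -0.92 ± 0.317 passed at an adjusted p of 0.0262, but not without NAc replicate 4 (0.0658), NAc replicate 5 (0.0631) or PFC replicate 2 (0.0547), nor in the 1-day saline libraries (-0.48, adjusted p = 0.0841).

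Htr1f was among the low receptors everywhere, with 1.06 ± 0.127 RPKM (SD, n = 6) in the NAc, 1.16 ± 0.123 RPKM (n = 6) in the PFC and 0.420 ± 0.262 RPKM (n = 5) in the VTA. It was lower in the VTA than in the NAc (log2 difference NAc to VTA 1.44 ± 0.272, adjusted p = 1.75e-04) and the PFC (VTA to PFC -1.60 ± 0.273, adjusted p = 6.86e-05), and NAc and PFC overlapped (-0.16 ± 0.243). Htr5a was 4.63 ± 0.605 RPKM in the PFC, 3.38 ± 0.686 in the VTA and 2.51 ± 0.215 in the NAc. The NAc was below the PFC by -0.93 ± 0.119 (adjusted p = 7.55e-06) with no overlap, and the VTA was below the PFC by -0.60 ± 0.124 (adjusted p = 4.73e-04). The NAc to VTA difference of -0.33 ± 0.124 (adjusted p = 0.0288) did not pass when 1 of 5 libraries was left out in turn (NAc replicates 3 to 6 or VTA replicate 2, adjusted p from 0.0580 to 0.116).

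Of the Gq-coupled pair, Htr2c was the receptor with the highest mean in NAc and VTA and Htr2a in the PFC. The rank of Htr2c depends on the length behind its RPKM, 4890 bases, whereas its annotated exons cover 9328 bases. Htr2c was 19.3, 20.8, 23.4, 23.8, 25.8 and 29.2 RPKM in the NAc, 18.7, 21.5, 24.0, 27.1 and 29.2 RPKM in the VTA, and 3.18, 3.3, 3.65, 4.74, 4.78 and 10.6 RPKM in the PFC. Every NAc and VTA library lay above every PFC library. The log2 difference was 2.19 ± 0.245 from NAc to PFC (edgeR adjusted p = 1.82e-06) and 2.11 ± 0.251 from VTA to PFC (1.22e-06), and was 2.57 and 2.46 without PFC replicate 4, while NAc and VTA overlapped fully (0.08 ± 0.245, adjusted p = 0.787). Htr2a was 6.04 ± 1.10 RPKM in the NAc and 6.12 ± 0.545 RPKM in the PFC (SD, n = 6 each), a difference of -0.05 ± 0.174 on the log2 scale. In the VTA it was 2.12 ± 0.649 RPKM (n = 5), below the NAc (1.62 ± 0.192, adjusted p = 9.85e-07) and below the PFC (-1.67 ± 0.192, adjusted p = 7.96e-07).

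The Gs-coupled receptors split. Htr4 was 1.53, 1.92, 2.22, 2.42, 2.48 and 3.38 RPKM in the NAc, 0.437, 0.462, 0.548, 0.614 and 0.628 RPKM in the VTA, and 0.317, 0.434, 0.440, 0.456, 0.583 and 1.16 RPKM in the PFC, so that the NAc stood alone. Its log2 difference was 1.99 ± 0.258 from NAc to PFC (adjusted p = 8.37e-06) and 2.22 ± 0.279 from NAc to VTA (1.96e-06). VTA and PFC differed by -0.23 ± 0.273 (adjusted p = 0.497), and by 0.11 without PFC replicate 4. Htr7 was highest in the VTA, with 4.01, 4.18, 5.25, 6.02 and 9.11 RPKM against 1.58 ± 0.569 RPKM in the NAc and 1.97 ± 0.431 RPKM in the PFC (SD, n = 6 each). No VTA library overlapped the others, and the log2 difference was -1.75 ± 0.238 from NAc to VTA (adjusted p = 4.86e-06) and 1.39 ± 0.236 from VTA to PFC (6.60e-05). The channel subunit Htr3a, which marks a class of cortical interneurons, was 2.96 ± 0.50 RPKM in the PFC, 1.18 ± 0.361 RPKM in the NAc and 0.562 ± 0.232 RPKM in the VTA. It was lower in the NAc than in the PFC (-1.38 ± 0.213, adjusted p = 5.02e-05) and lower in the VTA than in the PFC (-2.54 ± 0.242, adjusted p = 7.34e-08). The NAc to VTA difference was 1.16 ± 0.238 (adjusted p = 3.81e-04), and 0.65 (adjusted p = 0.0503) in the 1-day libraries.

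Within the NAc at 28 days the order of means was Htr2c, Htr1b, Htr2a, Htr1d, Htr5a, Htr4, Htr1a, Htr7, Htr3a and Htr1f. The libraries of neighbours overlapped at each step except from Htr1b to Htr2a and from Htr1d to Htr5a. In the VTA the order was Htr2c, Htr1a, Htr7, Htr5a, Htr1b, Htr2a, Htr1d, Htr3a, Htr4 and Htr1f, and only Htr2c was clear of its neighbour. In the PFC the order was Htr2a, Htr2c, Htr5a, Htr1a, Htr1b, Htr3a, Htr7, Htr1f, Htr4 and Htr1d, with overlap at every step. Without saline replicate 4 it was Htr2a, Htr5a, Htr1a, Htr2c, Htr3a, Htr1b, Htr7, Htr1f, Htr4 and Htr1d, and the steps from Htr2a to Htr5a, from Htr1f to Htr4 and from Htr4 to Htr1d had no overlap.

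The 1-day tables were prepared and normalised apart, so their levels are set beside the others without a test. Saline Htr2c was 39.3 ± 2.99 RPKM in the NAc, 38.1 ± 7.23 in the VTA and 5.98 ± 1.25 in the PFC at 1 day (SD, n = 6 each). Saline Htr1b was 10.3 ± 3.51, 2.55 ± 0.790 and 2.11 ± 0.569 RPKM in the same order, and Htr1d was 4.54 ± 0.624, 1.42 ± 0.766 and 0.186 ± 0.0625 RPKM. Between regions, the 1-day saline reads gave the NAc to PFC log2 differences 2.24 for Htr1b, 4.56 for Htr1d, 2.69 for Htr2c and 2.51 for Htr4, each called by edgeR in those libraries too.

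Within the NAc, Htr1b and Htr5a were related to the cortical markers at 1 day by Pearson's r, and no relation passed after adjustment by Spearman's rho or at 28 days. The mean log2 level of the 7 markers was related to each receptor over the 12 libraries of each table, among 40 such relations with those of the VTA below. At 1 day Htr1b went down as cortical markers went up (Pearson r = -0.82, permutation p = 0.00212, adjusted over the 40 relations 0.0424; Spearman rho = -0.75, permutation p = 0.00724, adjusted 0.0768). The r was -0.92 in saline and -0.74 in cocaine libraries, and -0.73 without the 2 libraries farthest from the median. Htr5a went up with them (r = 0.81, permutation p = 0.00190, adjusted 0.0424; rho = 0.78, permutation p = 0.00378, adjusted 0.0768), with r = 0.88 in saline, 0.81 in cocaine and 0.91 without the 2 farthest libraries. At 28 days the same relations gave r = -0.49 for Htr1b (permutation p = 0.107; rho = -0.52, permutation p = 0.0872) and 0.67 for Htr5a (permutation p = 0.0171, adjusted 0.105; rho = 0.62, permutation p = 0.0366, adjusted 0.183). Of the other receptors, the largest r at 28 days were 0.70 for Htr1a (permutation p = 0.0113, adjusted 0.105; rho = 0.75, permutation p = 0.00688, adjusted 0.0768) and -0.66 for Htr1f (permutation p = 0.0184, adjusted 0.105; rho = -0.74, permutation p = 0.00768, adjusted 0.0768). At 1 day it was 0.69 for Htr2a (permutation p = 0.0134, adjusted 0.105; rho = 0.62, permutation p = 0.0347, adjusted 0.183). Without the 2 farthest libraries these r were 0.59, -0.59 and 0.63. Htr4 gave r = -0.60 at 1 day (permutation p = 0.0366; rho = -0.69, permutation p = 0.0149) and -0.61 at 28 days (permutation p = 0.0369; rho = -0.52, permutation p = 0.0886), with adjusted p of 0.164 for both r. Htr3a gave r = 0.59 at 1 day (permutation p = 0.0429; rho = 0.56, permutation p = 0.0631) and 0.57 at 28 days (permutation p = 0.0468; rho = 0.52, permutation p = 0.0846), with adjusted p of 0.170 for both r.

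The second question was whether a receptor differed between cocaine and saline libraries of the same region and day. In the 6 tables together there were 60 receptor values, and none passed at an adjusted p under 0.05. edgeR was used for the 4 count tables and limma for the 2 RPKM tables (VTA and PFC at 1 day). In the NAc, 0 of 10 receptors were called at 1 day (0.0126% of all genes) and at 28 days (0% of all genes). In the VTA, 0 of 10 were called at 1 day (0.0388% of all genes) and at 28 days (0%), and in the PFC 0 of 10 at 1 day (0.00573%) and at 28 days (0%). DESeq2 on the 4 count tables and edgeR on the reads recovered from the other 2 also called 0 receptors.

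At an unadjusted p under 0.05 the counts were 0 of 10 in the NAc at 1 day (4.01% of all genes), 1 at 28 days (6.76%), 0 in the VTA at 1 day (14.9%), 1 at 28 days (11.5%), 0 in the PFC at 1 day (4.10%) and 2 at 28 days (5.66%). Saline and cocaine libraries overlapped in all 60 values, and the share of all genes with such overlap was not computed. The 10 receptors had a median log2 difference of -0.08 (NAc), -0.09 (VTA) and -0.03 (PFC) at 1 day. At 28 days it was 0.03 (NAc), 0.11 (VTA) and -0.01 (PFC), beside medians of all genes from -0.03 to 0.03. Of the 60 values, 17 were at least 0.3 in size, 8 higher and 9 lower in cocaine libraries. Without saline PFC replicate 4 these were 13 values, 8 higher and 5 lower, and in the PFC at 28 days 1 receptor in place of 2 had an unadjusted p under 0.05.

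**Figure D3:**
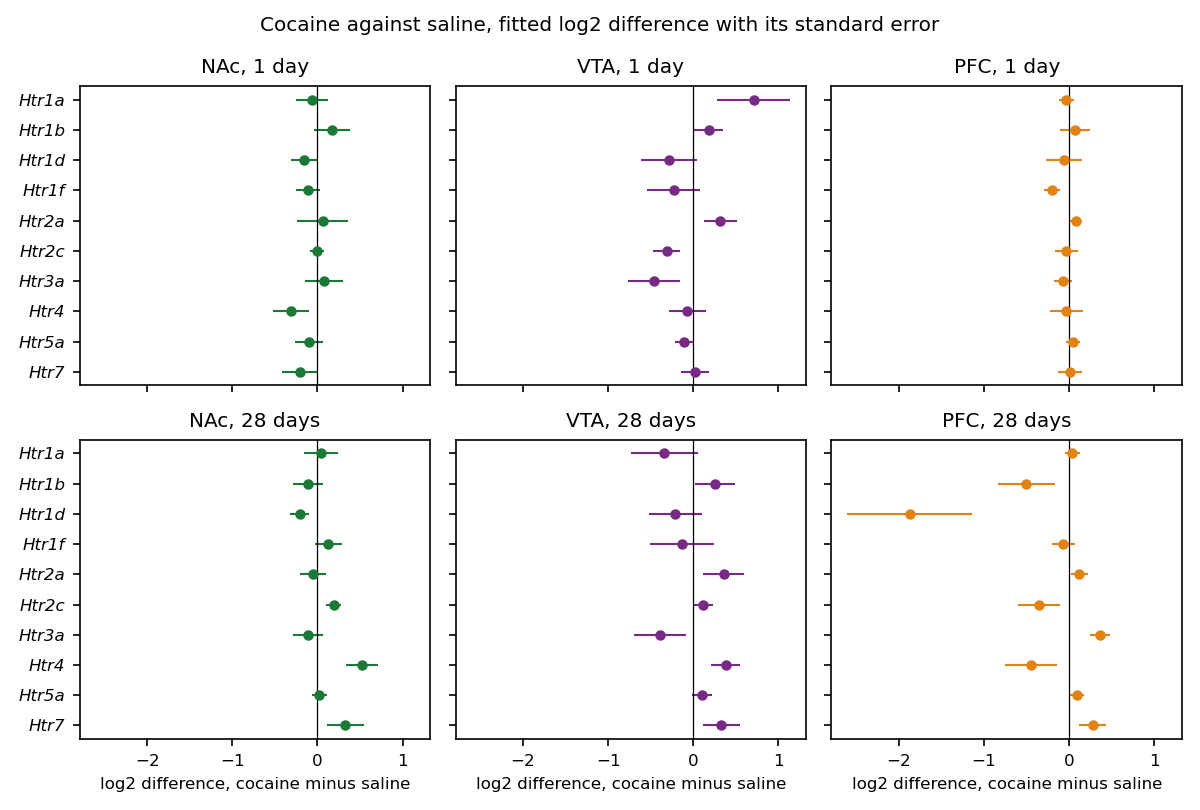
Fitted log2 difference between cocaine and saline libraries (cocaine minus saline) for each receptor in each region at 1 day (upper row) and 28 days (lower row); bars are standard errors. Most points lie within 0.5 of 0, and the farthest are Htr1a in the VTA at 1 day (0.71), Htr4 in the NAc at 28 days (0.52), Htr1b in the PFC at 28 days (-0.50) and Htr1d there (-1.87). Both of these PFC values were carried by 1 saline library.

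Htr4, a Gs-coupled receptor, had the smallest unadjusted p in the NAc and in the VTA at 28 days. In the NAc it was 1.53, 1.92, 2.22, 2.42, 2.48 and 3.38 RPKM in saline and 2.23, 2.57, 3.3, 3.31, 4.29 and 4.43 RPKM in cocaine libraries. The groups overlapped, with 2 cocaine values above every saline value and 5 above the mean of saline. The log2 difference was 0.52 ± 0.187 (edgeR unadjusted p = 0.0142, adjusted p = 0.655; exact permutation p = 0.0433). The adjusted p was 0.305 to 0.768 under the alternatives that kept all libraries. The cortical markers were lower in these cocaine libraries (median sum 25.1 RPKM against 63.9 RPKM in saline), and with their level in the model the difference was 0.36 ± 0.169.

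In the VTA at 28 days Htr4 was 0.437, 0.462, 0.548, 0.614 and 0.628 RPKM in saline and 0.564, 0.608, 0.649, 0.652, 0.855 and 0.901 RPKM in cocaine libraries. Each of the 6 cocaine values exceeded the mean of saline, and 4 exceeded every saline value. The log2 difference was 0.38 ± 0.170 (edgeR unadjusted p = 0.0437, adjusted p = 0.420; exact permutation p = 0.0390), and the adjusted p under the other settings with all libraries was 0.312 to 0.702. With the serotonin neuron markers in the model, a setting chosen after the data were seen, it was 0.52 ± 0.194 (adjusted p = 0.702). The cortical markers had a median sum of 6.46 RPKM in these cocaine and 28.5 RPKM in these saline libraries, and with them in the model the difference was 0.27 ± 0.229 (adjusted p = 0.516). At 1 day Htr4 was 3.21 ± 0.848 RPKM in cocaine and 4.00 ± 1.13 RPKM in saline NAc libraries (SD, n = 6 each), a log2 difference of -0.31 ± 0.209, and in the VTA it was 0.861 ± 0.25 and 0.906 ± 0.275 RPKM.

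**Figure D4:**
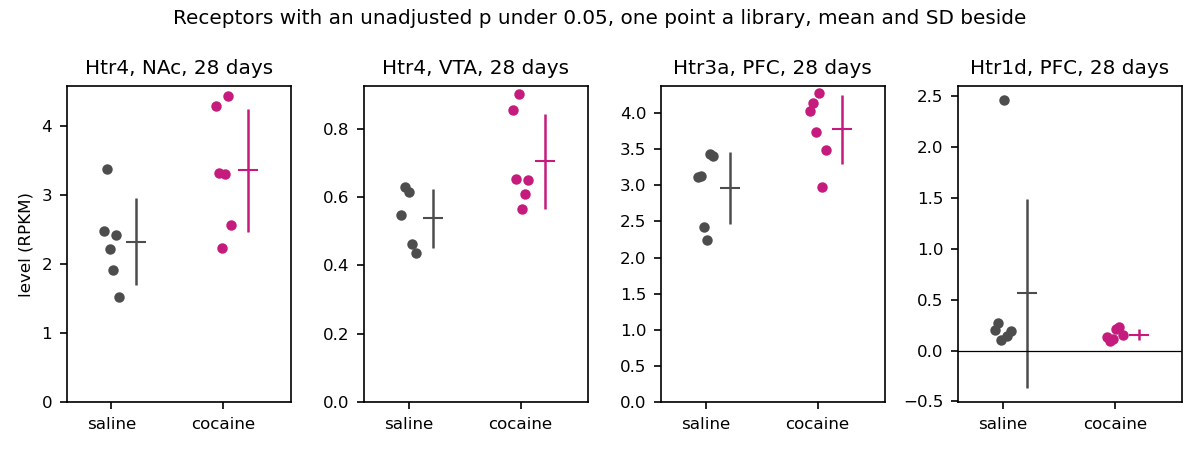
Level in RPKM of the receptors with an unadjusted p under 0.05 between cocaine and saline libraries at 28 days; points are libraries (6 a group, 5 for saline VTA), and crosses with bars beside them are mean and SD. Htr4 and Htr3a overlap between groups with higher cocaine means, and the Htr1d difference comes from 1 saline library at 2.46 RPKM.

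In the PFC at 28 days Htr3a was 2.25, 2.43, 3.11, 3.13, 3.41 and 3.43 RPKM in saline and 2.98, 3.49, 3.74, 4.02, 4.14 and 4.27 RPKM in cocaine libraries. Every cocaine value exceeded the mean of saline, and 5 of 6 exceeded every saline value. The log2 difference was 0.36 ± 0.119 (edgeR unadjusted p = 0.00851, adjusted p = 0.842; exact permutation p = 0.0238), and 0.30 ± 0.110 without saline replicate 4, which had the lowest value. Htr1d in the same libraries was 0.0917, 0.117, 0.137, 0.149, 0.214 and 0.235 RPKM in cocaine, inside or below the 0.108 to 0.267 RPKM of the 5 other saline libraries. The log2 difference of -1.87 ± 0.734 (unadjusted p = 0.0226, adjusted p = 0.842) was -0.25 ± 0.285 without saline replicate 4, and the exact permutation p with all libraries was 0.234. That library also set 3 other PFC differences at 28 days: Htr1b was -0.50 with it and 0.05 without, Htr2c -0.35 and 0.02, and Htr4 -0.45 and -0.10. The log2 difference of Htr7 was 0.28 ± 0.159 in the PFC with and 0.28 ± 0.168 without it, and 0.33 ± 0.216 in the NAc and 0.33 ± 0.217 in the VTA at 28 days, with 5 of 6 cocaine values above the mean of saline in each of the 3. In the VTA it was 0.01 ± 0.246 with the cortical markers and 0.19 ± 0.245 with the serotonin neuron markers in the model. With the cortical markers in the model it was 0.43 ± 0.221 in the NAc and 0.29 ± 0.164 in the PFC. In the PFC at 1 day Htr1f was 1.36, 1.47, 1.65, 1.66, 1.66 and 1.73 RPKM in cocaine and 1.56, 1.72, 1.78, 1.85, 1.92 and 2.21 RPKM in saline libraries. No cocaine library reached the saline mean on the log2 scale, and the log2 difference was -0.20 ± 0.0977 (limma unadjusted p = 0.0622, adjusted p = 0.921; exact permutation p = 0.0368). The exact test gave a p under 0.05 for 4 of the 60 values, those of Htr4, Htr3a and Htr1f above. It was run on the receptors only and without adjustment, so no share of all genes stands beside this count.

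Htr1a was the receptor with the largest difference in the VTA at 1 day. It was 2.80, 3.01, 4.76, 5.72, 6.51 and 8.90 RPKM in saline and 2.35, 5.96, 7.05, 10.6, 14.2 and 17.6 RPKM in cocaine libraries, so cocaine held both the highest values and the lowest. The log2 difference was 0.71 ± 0.430 (limma unadjusted p = 0.124, adjusted p = 0.477). It was 1.05 without cocaine replicate 6 and 0.48 without cocaine replicate 5. The cocaine library with 17.6 RPKM of Htr1a held 158 RPKM of Tph2, and the saline libraries with 2.80 and 3.01 RPKM held 1.10 and 1.33 RPKM. Others went against this order: the cocaine library with 10.6 RPKM of Htr1a held 11.3 RPKM of Tph2. The saline library with 4.76 RPKM of Htr1a held 53.1 RPKM. Over the 12 libraries the relation of Htr1a to the 3 markers had r = 0.76 (permutation p = 0.00431, adjusted 0.0575) and rho = 0.66 (permutation p = 0.0219, adjusted 0.146), with r = 0.93 in saline, 0.73 in cocaine and 0.65 without the 2 farthest libraries. With the serotonin neuron markers in the model the cocaine difference was 0.36 ± 0.321 (limma adjusted p = 0.690). With the cortical markers it was 0.84 ± 0.555 (limma adjusted p = 0.800).

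At 28 days Htr1a in the VTA was 2.93, 3.32, 3.42, 10.7 and 11.8 RPKM in saline and 3.31, 3.85, 4.30, 5.22, 5.59 and 8.15 RPKM in cocaine libraries. The 2 highest were saline libraries with 102 and 91.7 RPKM of Tph2, and the lowest was a saline library with 63.9 RPKM of Tph2. The log2 difference was -0.34 ± 0.391 (edgeR adjusted p = 0.704), and it rested on those libraries, at -0.09 without one of them (saline replicate 4) and -0.00 without the other (saline replicate 3). It was 0.25 ± 0.460 with the serotonin neuron markers and 0.43 ± 0.442 with the cortical markers in the model. The relation to the 3 serotonin neuron markers was weaker over these 11 libraries (r = 0.43, permutation p = 0.182; rho = 0.28, permutation p = 0.403).

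**Figure D5:**
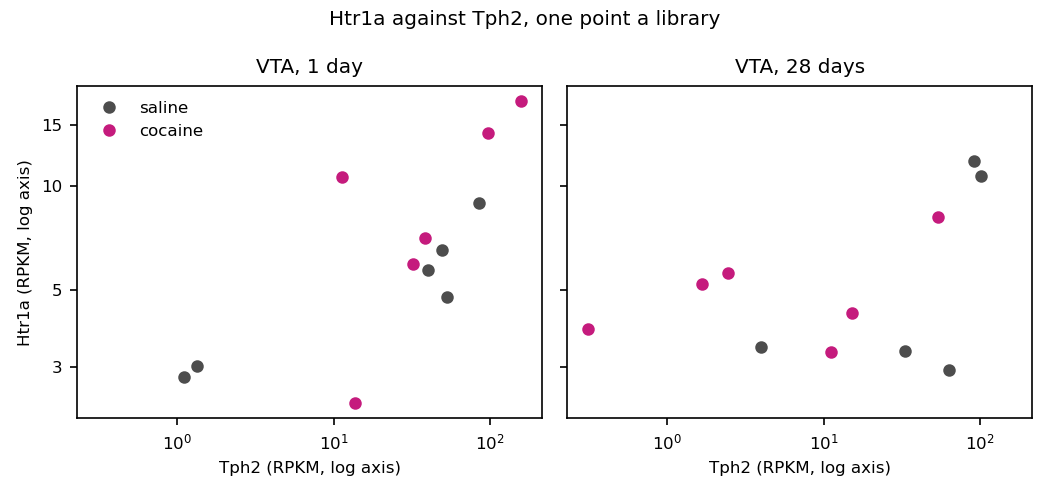
Htr1a against Tph2 in RPKM, both on log axes, in the VTA libraries at 1 day (left, 12 libraries) and 28 days (right, 11 libraries); grey is saline and pink is cocaine. The libraries with the most Tph2 (158 RPKM at 1 day, 102 RPKM at 28 days) have among the most Htr1a, the saline library with 63.9 RPKM of Tph2 at 28 days has the least, and cocaine holds the upper end at 1 day and saline at 28 days.

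The dopamine neuron markers in the VTA at 1 day had a median sum of 853 RPKM in cocaine and 1358 RPKM in saline libraries, and their part in the receptor values was not tested. Htr2c at 1 day was 22.9, 23.0, 30.8, 33.9, 36.5 and 38.8 RPKM in cocaine and 28.3, 30.3, 39.1, 41.1, 44.3 and 45.6 RPKM in saline libraries. Only 1 cocaine value exceeded the mean of saline, and the difference was -0.31 ± 0.158 (limma unadjusted p = 0.0742, adjusted p = 0.390). It was 0.06 ± 0.115 with the cortical markers in the model. Ttr, a marker of the choroid plexus, was 140 RPKM in cocaine replicate 6 and 58.0 RPKM in saline replicate 6 and 0.518 to 4.96 RPKM in the other libraries. These 2 libraries held 23.0 and 30.3 RPKM of Htr2c, and the part of the choroid plexus in the Htr2c values was not tested. Htr3a was 0.532 ± 0.168 RPKM in cocaine and 0.840 ± 0.499 in saline libraries at 1 day (-0.46 ± 0.302), and 0.432 ± 0.170 and 0.562 ± 0.232 at 28 days (-0.39 ± 0.311). Htr2a was 0.32 ± 0.196 higher at 1 day and 0.36 ± 0.240 higher at 28 days on the log2 scale, with 5 of 6 cocaine values above the mean of saline at both times and adjusted p of 0.478 and 0.528. With the cortical markers in the model Htr2a was 0.33 ± 0.255 and 0.66 ± 0.346 at these times. Htr3a was -0.29 ± 0.385 and -0.30 ± 0.466. In the NAc at 28 days, Htr2c was 27.1 ± 2.89 RPKM in cocaine and 23.7 ± 3.53 in saline libraries (0.19 ± 0.0927, edgeR adjusted p = 0.754), and Htr1d was 4.52 ± 0.719 and 5.19 ± 0.679 (-0.21 ± 0.114, adjusted p = 0.781). With the cortical markers in the model these differences were 0.18 ± 0.0994 (edgeR adjusted p = 0.571) and -0.29 ± 0.103 (edgeR adjusted p = 0.350).

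The third question was whether the difference between cocaine and saline changed from 1 to 28 days. The test of treatment by time point called 0 of 10 receptors in the NAc (edgeR; 0.0181% of all genes), in the VTA (limma; 0% of all genes) and in the PFC (limma; 0.0114%). DESeq2 in the NAc and edgeR on reads in the VTA and PFC also called 0. At an unadjusted p under 0.05 there was 1 receptor in each region, beside 5.27%, 13.2% and 4.50% of all genes in NAc, VTA and PFC. Htr4 in the NAc changed by 0.84 ± 0.296 (unadjusted p = 0.00888, adjusted p = 0.846), from lower to higher in cocaine libraries. Htr2c in the VTA changed by 0.44 ± 0.209 (unadjusted p = 0.0444, adjusted p = 0.365) and Htr3a in the PFC by 0.42 ± 0.165 (unadjusted p = 0.0177, adjusted p = 0.998). The time points came from separate tables, which cancels in this contrast only as far as the tables treat both groups alike.

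Of 4 other serotonin receptor genes, Htr2b and Htr3b were below 0.101 RPKM in all libraries and did not pass the filter on low values in any comparison. Htr5b was 0.217 to 0.545 RPKM on average in the saline groups. Htr6, a Gs-coupled receptor, was 3.76 ± 0.240 RPKM in the NAc, 2.18 ± 0.479 in the PFC and 0.623 ± 0.201 in the VTA at 28 days, and was higher in the NAc than in the VTA (log2 difference 2.70 ± 0.181, adjusted p = 7.42e-10). Neither Htr5b nor Htr6 was called between cocaine and saline libraries, the smallest adjusted p being 0.337 for Htr5b in the VTA at 1 day.

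Of 7 genes for serotonin synthesis, transport and breakdown, 6 were higher in the VTA than in the PFC (29.8% of all genes). All 7 were higher in the VTA than in the NAc (32.6% of all genes). Their median log2 differences were 5.72 from VTA to PFC and -5.10 from NAc to VTA, beside 0.02 and -0.03 for all genes. Slc18a2, the vesicular monoamine transporter, and Ddc, the decarboxylase, led both, and dopamine neurons use them too. Of 21 G protein and effector genes, 2 were higher and 11 lower in the NAc than in the PFC, beside 20.0% and 20.7% of all genes, among them the adenylyl cyclases Adcy2 (-1.24 ± 0.0975, adjusted p = 4.56e-08) and Adcy1 (-2.14 ± 0.174, 6.74e-08) and the potassium channel genes Kcnj9 (-1.87 ± 0.156, 8.77e-08) and Kcnj3 (-1.94 ± 0.163, 9.14e-08). The same list had 8 higher and 7 lower from NAc to VTA, beside 29.8% and 32.6% of all genes. From VTA to PFC it had 4 higher and 12 lower, beside 29.8% and 28.1%. Of the 8 receptor partners, 0, 2 and 1 were higher and 4, 4 and 3 lower in these 3 contrasts, beside the same shares of all genes, and the scaffold Dlg4 was lower in the VTA than in the PFC (-1.59 ± 0.0959, adjusted p = 1.95e-10).

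Between cocaine and saline libraries none of these genes was called by edgeR or limma in any table. The smallest unadjusted p were 0.00157 for Adar, an RNA-editing enzyme that acts on Htr2c transcripts, in the VTA at 28 days (0.23 ± 0.0572, adjusted p = 0.389), 0.00177 for Kcnj9 in the VTA at 1 day (0.49 ± 0.126, adjusted p = 0.127) and 0.00435 for Gnai1, an inhibitory G protein subunit, in the NAc at 28 days (0.20 ± 0.0581, adjusted p = 0.592). Of the 21 G protein and effector genes, 5 had an unadjusted p under 0.05 in the VTA at 1 day, 3 in the VTA at 28 days and 1 in the NAc at 28 days, beside 14.9%, 11.5% and 6.76% of all genes. In the PFC the smallest were 0.0432 for Slc18a2 at 1 day and 0.0333 for Ddc at 28 days, with differences of -0.57 ± 0.258 and -0.35 ± 0.147.

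The genes most like each receptor were sought over the 35 libraries at 28 days, by Pearson r of log2 CPM among 17678 genes. These r describe mainly the contrast of the 3 regions, which all libraries share. Closest to Htr2c was Pbx3 (r = 0.986), to Htr1b Ppp2r5d and Pde1b (0.978 each), to Htr1d Tmem90a and Slc35d3 (0.978 each), to Htr4 Gm5607 (0.963) and Slco5a1 (0.960). Closest to Htr3a was Fbxw7 (0.969), to Htr5a Gabbr2 (0.969), to Htr7 Slc1a6 (0.959), to Htr2a Cacnb4 (0.938), to Htr1f Arhgef2 (0.906) and to Htr1a Shisa6 (0.861). Among the receptors, the highest r joined Htr4 with Htr1b (0.93) and with Htr1d (0.91), and the lowest joined Htr5a with Htr1d (-0.93) over the same libraries.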

How the data were processed

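RNA of micro-punches was sequenced, and the authors aligned the reads to mm9 with STAR (2.4.1d). The deposited tables of the NAc at 1 day and of all regions at 28 days hold read counts per gene as the authors made them. For VTA and PFC at 1 day the deposited values are RPKM, normalised by the authors. In those, values of a gene were whole multiples of a step within a small tolerance. Whole reads were recovered in this way for 100% of 23806 genes with reads in the VTA and 23353 in the PFC. The step gave a whole gene length for 23630 and 23213 of them. Of 22380 genes with a length from both, 22093 had the same one. RPKM of the count tables was computed with these lengths, the shorter where the 2 differed. The authors' own comparison columns hold fold changes and test results and were not used, nor were 30 value columns of no sample analysed here. In the 28-day tables the column names show the group only, so those replicate numbers are names.

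Counts were tested with edgeR (4.0.16) quasi-likelihood fits after TMM scaling and filterByExpr, and RPKM with limma (3.58.1, trend) on log2(RPKM + 0.1) for genes whose mean reached 0.1 RPKM. There the fold change of a low gene is understated. Adjusted p are Benjamini-Hochberg over all genes tested. Single receptors also had exact permutation tests (each with both sides) on log2(RPKM + 0.1), whose smallest possible p with 6 libraries in each group is 0.00216. Relations used 100000 permutations, and likeness used log2(CPM + 0.5). The alternatives were DESeq2 (1.42.0), other scaling, filters, pseudocounts and thresholds, marker covariates, a replicate block and leaving out each library. R 4.3.3 and Python with scipy were used, and the fits were tested on simulated data. Every receptor was named in each table; of other pathway genes, those called (at most 4 a comparison) or with the smallest p. Cocaine differences are given singly from 0.3 in size or an unadjusted p under 0.1. The receptors and gene lists were chosen with earlier results of these data known. No 2 libraries of a group agreed within counting noise. Low counts limit Htr1d and Htr4 in the PFC. They also limit Htr1f (7 to 77 reads per library) and Htr3a (21 to 85 reads) in the VTA. Intervals are standard errors of the fits unless SD is named.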

Additional observations from a re-analysis of the deposited data

Results flagged for a closer look

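In 10 of 120 sets of 1 receptor in 1 group, a library stood apart from the rest by Dixon's criterion at the 95% level, which chance gives in about 1 in 20 sets. Of these, 4 were saline PFC replicate 4 at 28 days, with 9.71 RPKM of Htr1b (next 3.08), 2.46 RPKM of Htr1d (next 0.267), 10.6 RPKM of Htr2c (next 4.78) and 1.16 RPKM of Htr4 (next 0.583). Htr3a was highest at 1.88 RPKM in saline NAc replicate 1 at 28 days (next 1.19) and at 1.49 RPKM in cocaine NAc replicate 3 (next 1.09), the libraries with the most cortical marker RNA of their groups. Htr1f was lowest at 0.112 RPKM, from 7 reads, in cocaine VTA replicate 6 at 1 day (next 0.589), the library with the most Ttr. Htr1d was highest at 1.33 RPKM in cocaine VTA replicate 1 at 28 days (next 0.905), Htr7 lowest at 1.16 RPKM in saline PFC replicate 2 (next 1.89), and Htr1f highest at 1.56 RPKM in cocaine PFC replicate 5 (next 1.16), all at 28 days. What set these libraries apart was not tested.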

How the results depend on the processing

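The number of receptors called in a comparison, both directions together, stayed within 1.5 times under the settings run, and none of 1159 fits of a receptor between cocaine and saline passed at its threshold, the smallest adjusted p being 0.0890 for Htr2c in the VTA at 1 day with a replicate block. Same-numbered cocaine and saline libraries at 1 day had r from -0.322 to 0.421 in the NAc, -0.176 to 0.329 in the VTA and -0.131 to 0.00716 in the PFC (6 pairs a region). With 3, 2 and 0 of the pairs over 0.1, these r cannot decide whether the numbers pair the libraries. The replicate block called 2, 59 and 1 genes in NAc, VTA and PFC against 2, 7 and 1 without it. Over all genes, DESeq2 called 21 and 20 in the NAc at 1 and 28 days, 83 in the VTA and 2 in the PFC at 28 days, against 2, 0, 0 and 0 by edgeR; edgeR on the recovered reads called 55 in the VTA and 1 in the PFC at 1 day, against 7 and 1 by limma. For the VTA at 1 day limma without trend called 14, and an adjusted p under 0.25 took in 1250.

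Several differences that were not called changed sign, the largest being -0.66 for Htr1b from VTA to PFC. With the cortical markers in the model, Htr2c in the VTA at 1 day became 0.06 and Htr1a in the VTA at 28 days 0.43, and 0.25 with the serotonin neuron markers (cocaine against saline). From the 28-day cocaine libraries, Htr1f from NAc to PFC became 0.04, and from VTA to PFC Htr1b became 0.13 and Htr4 0.64 (adjusted p = 0.0171). From the 1-day saline libraries, Htr2a and Htr7 from NAc to PFC became 0.20 and 0.17, and Htr1b and Htr4 from VTA to PFC 0.16 and 0.28, while Htr1d from VTA to PFC was 2.81 and passed. Leaving out 1 library, Htr2a from NAc to PFC ran from -0.11 to 0.05, Htr2c from NAc to VTA from -0.01 to 0.16, Htr4 from VTA to PFC from -0.34 to 0.11, and, cocaine against saline in the PFC at 28 days, Htr1b from -0.64 to 0.05 and Htr2c from -0.45 to 0.02. Asking for a 2-fold difference as well removed Htr1a and Htr5a from NAc to PFC and Htr5a from NAc to VTA and from VTA to PFC, which left 1 of the 3 lower receptors from NAc to PFC. The cause of these changes was not tested. DESeq2 gave Htr1d no p between regions or in the PFC at 28 days.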
